A study of Mus musculus with 14 samples.

Results

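The genes described here build and run the primary cilium, the single sensory antenna of many vertebrate cells. They encode the motor and cargo trains that move along it, and the gate at its base. Members were chosen by name: the numbered Ift, Bbs and Nphp genes, Tctn1 to Tctn3, and Invs, Nek8, Tmem67, Cep290, Kif3a, Kif3b, Kifap3, Arl13b, Arl3, Arl6, Glis2, Mks1, Rpgrip1l and Tulp3. Of 44 genes with such names, 41 reached a mean of at least 0.5 CPM (counts scaled to a fixed library size, with TMM factors for composition) over all livers. These 41 are the cilium genes below, out of 57180 genes in the table. Just inside the level limit lay Ift57 at 0.681 CPM, and just outside it Ift56 at 0.386 CPM, Bbs12 at 0.286 CPM and Nphp4 at 0.0857 CPM. All 41 passed the filter for testing, which kept 16201 genes.

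RNA of whole liver was sequenced from littermate mice of 3 Pkd1 genotypes, labelled Homo (4 livers), Het (4 livers) and WT (6 livers). Every animal carried Cre in its label, WT included, and all were fed normal chow. The labels give no Pkd1 allele, no Cre driver and no litter, sex, age or batch, and which cells lost Pkd1 function, if any, is therefore unknown. The question put to the data was whether transcripts of the ciliary transport and gate machinery differed between the genotypes.

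Intraflagellar transport (IFT) carries cargo along the ciliary microtubules on trains of the IFT-A and IFT-B complexes. Kinesin-2 pulls them towards the tip and cytoplasmic dynein-2 pulls them back. The BBSome is a coat that rides on these trains and removes membrane proteins from the cilium, and the transition zone is the gate between cilium and cell body. Polycystin-1, the product of Pkd1, works in the ciliary membrane, and mutations in many of the genes described here cause kidney and liver cysts in humans. In liver, bile duct cells carry primary cilia while hepatocytes mostly lack them. In bulk tissue, fewer cells of a type and less RNA per cell cannot be told apart.

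Homo libraries held 18573686 to 28431839 counts, Het libraries 22833800 to 26245428 and WT libraries 25238117 to 40925909. The median correlation of a library with the others was 0.978 to 0.985, and none stood apart. Pkd1 itself had 23.1, 26.2, 25.5 and 26.4 CPM in the Homo livers and 31.6, 28.1, 32.6 and 36.7 CPM in the Het livers. In WT livers it had a lowest value of 31.4, a median of 35.2 and a highest of 37.7 CPM. All Homo livers lay below all WT livers, with a fold of 0.728 (95% interval 0.646 to 0.819, edgeR adjusted p = 0.0246). An exact permutation test gave p = 0.00476, below which 4 against 6 livers cannot go. Leaving out single libraries gave edgeR adjusted p-values up to 0.131 (without Homo 1), with log2 fold changes between -0.49 and -0.42. The call was also lost without Homo 2, Homo 3, Homo 4, WT 3, WT 4 or WT 6. Hepatocyte markers summed to 71700 to 98400 CPM in Homo, 74700 to 84900 in Het and 76400 to 91800 in WT.

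RFX transcription factors are known regulators of ciliary genes and bind a promoter motif called the X-box. RefSeq promoters (GRCm38.p6, 250 bases before to 50 after the gene start) were at hand for 34 of the 41 genes. An X-box, searched on both strands as an exact match, was found in 5 of the 34 (14.7%), against 469 of 26991 other genes (1.74%). The core GTTGCC, which can lie within an X-box, was found in 14 of the 34 (41.2%) on either strand, against 14.1% of the other genes. The matches are shown because they let the motif be compared between genes of different complexes. Each is printed on the strand of its gene, with 8 bases on each side where the promoter window reaches that far and the X-box letters in capitals. They lie at chr19:4906605-4906634 (Bbs1, minus strand, motif starting 2 bases after the start site), chr16:49699199-49699228 and chr16:49699226-49699254 (Ift57, plus strand, starting at -87 and -60), chr5:122264411-122264432 (Tctn1, minus strand, starting at 37), chr5:124598679-124598708 (Tctn2, plus strand, starting at -62) and chr19:40612351-40612379 (Tctn3, minus strand, starting at -140).
Bbs1: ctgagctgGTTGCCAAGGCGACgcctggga
Ift57, upstream match: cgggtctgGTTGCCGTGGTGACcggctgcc
Ift57, downstream match: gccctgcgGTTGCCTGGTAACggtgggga
Tctn1: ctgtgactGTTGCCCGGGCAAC
Tctn2: gattggagGTTACCATGGCTACtggtcctc
Tctn3: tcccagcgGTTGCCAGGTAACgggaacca
All 3 tectonic genes, which encode proteins of the transition zone, held a match. The other X-box genes encode a BBSome subunit (Bbs1) and an IFT-B subunit (Ift57). A match describes these letters only, and binding was not measured. The log2 fold changes of the 5 genes in Homo against WT had a median of 0.19 (from -0.12 to 0.67), against -0.02 in the 29 genes with a promoter and no X-box. In Het against WT the medians were -0.26 and 0.08, so the order of these medians differed between the comparisons, which share the WT livers. The X-box genes were also lower, with a median of 1.14 CPM against 4.57 CPM, and so rest on fewer counts. Their highest fold in Homo against WT, that of Tctn3, was 0.28 on the log2 scale without Homo 3.

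Ciliary transport and gate genes were low in whole liver. Their median level was 3.74 CPM, against 7.85 CPM over all genes tested, and 37.8% of tested genes lay below the cilium gene median. The sum over the 41 genes was 247 to 259 CPM in Homo, 252 to 265 CPM in Het and 246 to 262 CPM in WT, so the groups overlapped. They took 0.0238% to 0.0267% of all counts. Counts per library and gene lay between 9 (Ift57) and 1911 (Ift20).

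**Figure D1:**
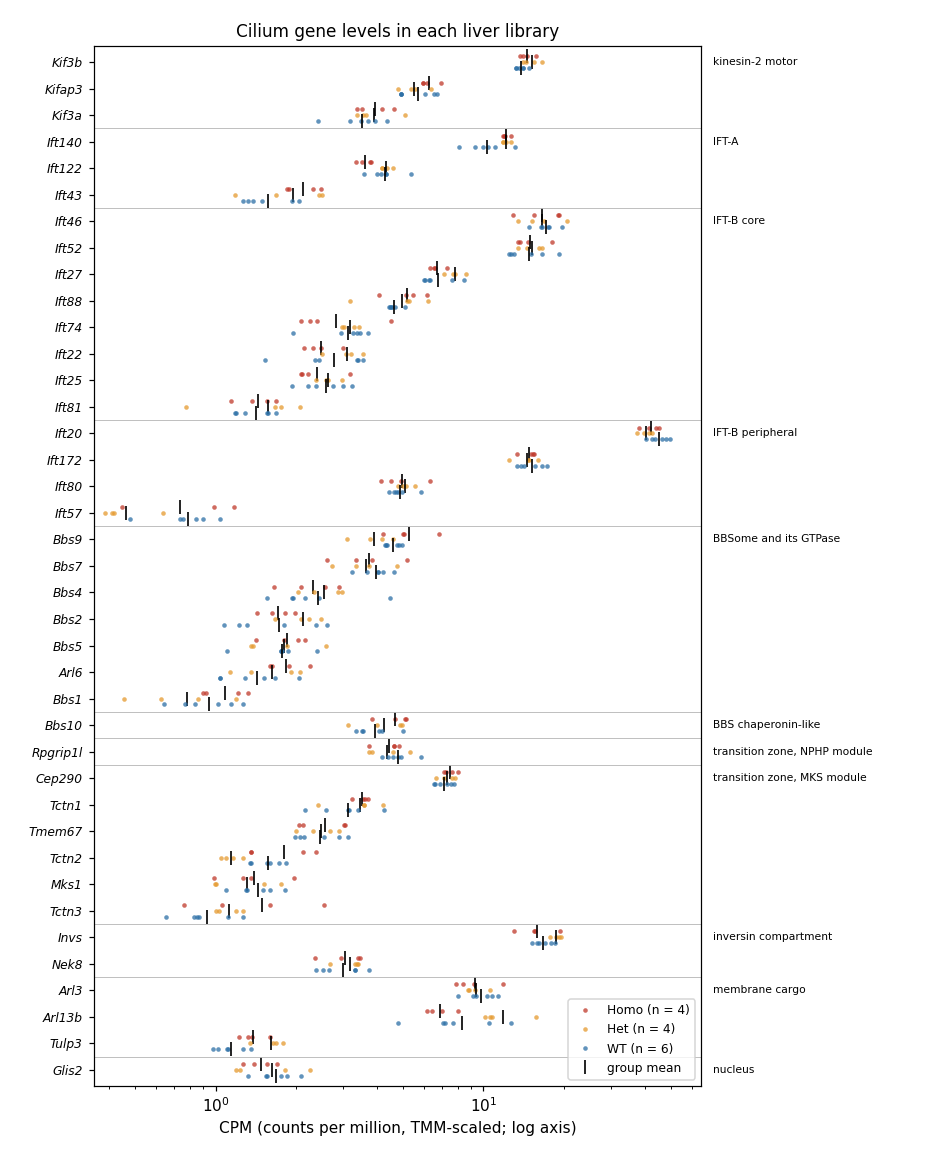
Level of 39 of the 41 cilium genes in every liver, as CPM on a log axis, with genes in rows ordered by complex. Points are single libraries of Homo (red), Het (orange) and WT (blue) and black ticks are group means. Ift20 stands highest near 43 CPM, Ift57 lowest, and in nearly every row the points of the groups overlap.

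Levels between genes were compared as CPM per kilobase of exon, available for 40 of the 41. Ift20, an IFT-B subunit that also sits at the Golgi, was the highest at 27.7 ± 2.08 in Homo, 26.5 ± 1.55 in Het and 29.6 ± 2.33 CPM per kilobase in WT (SD; n = 4, 4 and 6). The lowest was Bbs1, a BBSome subunit, at 0.142 ± 0.0271, 0.102 ± 0.0417 and 0.123 ± 0.031 CPM per kilobase in the same order, a ratio of 229 between the 2 genes over all livers. Next below Ift20 over all livers came Ift52 at 5.33, Arl3 at 3.83, Ift46 at 2.61, Kif3b at 2.55 and Ift27 at 2.46 CPM per kilobase. Of the 39 neighbouring pairs in this order, 35 overlapped within mean ± SD in WT. The other 4 steps, which stood apart, were Ift20 over Ift52, Arl3 over Ift46, Rpgrip1l over Ift81 and Ift57 over Tulp3. The last of these depends on the length used. By the longest transcript, Tulp3 at 0.37 CPM per kilobase lay above Ift57 at 0.262. Mean ± SD covers the spread between livers and no uncertainty in length.

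Subunits of a single complex differed widely per kilobase. The IFT-B core ran from 0.251 (Ift81) to 5.33 (Ift52), a ratio of 21.2, although its subunits are assembled into the same particle. With the longest transcript as length in place of all exon bases, the same genes stood at 0.496 and 6.65, a ratio of 13.4, and Arl3 at 8.65 ranked above Ift52. Ift57, which belongs to the outer part of IFT-B, was at 0.238 CPM per kilobase, and Ift20 of the same part was 118 times higher. The BBSome and its GTPase Arl6 spanned a ratio of 6.2 (Bbs1 to Arl6 at 0.763 CPM per kilobase). By the longest transcript that ratio was 8.45, with Bbs7 the highest at 1.42. The 5 genes of the MKS module of the transition zone with a known length ran from Tmem67 at 0.321 to Cep290 at 0.627 CPM per kilobase, a ratio of 1.95. By the longest transcript they ran from Tctn3 at 0.417 to Cep290 at 0.886, a ratio of 2.12.

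No cilium gene differed between genotypes at an edgeR adjusted p under 0.05, in any of the 3 comparisons or in the trend over WT, Het and Homo. In Homo against WT, 0 of 41 were called by edgeR and 0 by DESeq2, where 0.222% of all genes tested were called by edgeR and 0.377% by DESeq2. At an unadjusted edgeR p under 0.05 there were 2 of 41 (4.88%), against 4.73% of all genes. The fold was above 1 in 23 of 41 genes, with a median log2 fold change of 0.02 and a range from -0.27 to 0.67, against 50.6% of all genes above 1 and a median of 0. None of the 41 had Homo and WT livers that did not overlap, against 1.15% of all genes. The 95% interval of the fold lay within 1.5-fold either way for 28 of 41 genes (59.8% of all genes). It lay within 2-fold for 40 (79.8% of all genes), with Tctn3 the exception. The intervals are not adjusted for the number of genes tested. They do not give the smallest difference that could have been called, and differences inside them remain possible.

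Het against WT gave the same count. By edgeR 0 of 41 were called (0.0556% of all genes), and by DESeq2 also 0 (0.198% of all genes). At an unadjusted edgeR p under 0.05 there were 5 of 41 (12.2%), against 4.67% of all genes. The fold was above 1 in 27 of 41, with a median log2 fold change of 0.04 and a range from -0.76 to 0.50, against 50% of all genes above 1. Intervals within 1.5-fold again covered 28 genes (59.8% of all genes), and within 2-fold 40 (79.7% of all genes), with Ift57 the exception. Groups that did not overlap were found for 1 gene, Tctn2, against 1.2% of all genes.

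Between Homo and Het, 0 of 41 were called by edgeR (0.0309% of all genes) and 0 by DESeq2 (0.0988%). At an unadjusted edgeR p under 0.05 there were 4 of 41 (9.76%), against 5.1% of all genes. The fold was above 1 in 23 genes (50.5% of all genes), with a median log2 fold change of 0.01 and a range from -0.78 to 0.64. Intervals within 1.5-fold covered 24 genes (55.7% of all genes) and within 2-fold 36 (75.8% of all genes). Homo and Het livers did not overlap for 3 genes (Tctn2, Arl13b and Ift122), against 2.94% of all genes. In the trend, with genotype as steps of 0, 1 and 2, edgeR called 0 of 41 (0.185% of all genes), DESeq2 0 (0.333%), and 2 of 41 had an unadjusted edgeR p under 0.05 (4.72% of all genes). The comparisons share libraries, so their values are not independent of each other.

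**Figure D2:**
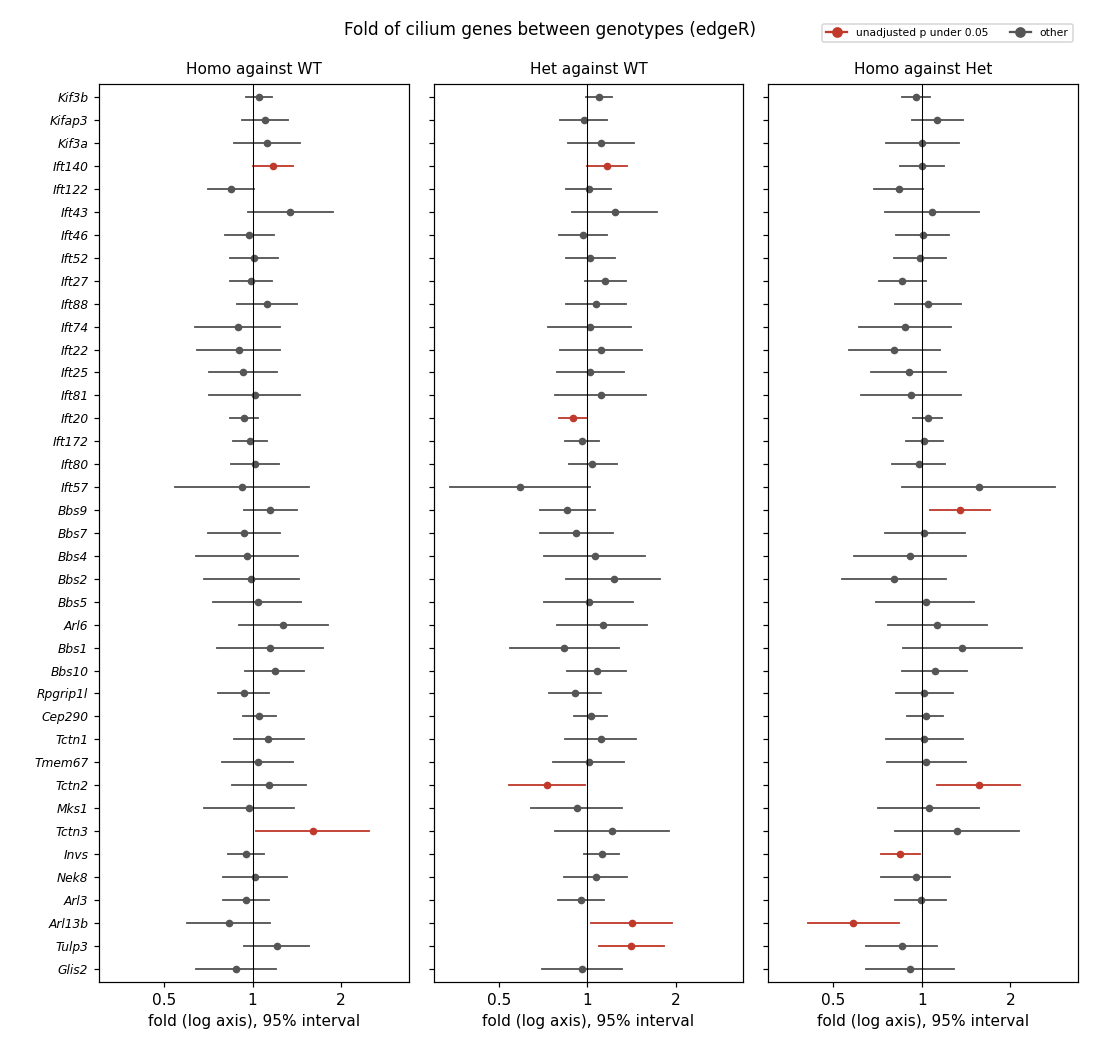
Fold of 39 cilium genes between genotypes, each with its 95% interval from edgeR, on a log axis, with a panel for Homo and a panel for Het against WT, and the last panel for Homo against Het. Red marks an unadjusted p under 0.05 and grey all others. Most intervals cross 1, and the widest belong to low genes such as Ift57 and Tctn3.

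None of the 3 motor genes was called, and their groups overlapped. Kif3b, a motor subunit of kinesin-2, had 13.7, 14.1, 15.7 and 14.5 CPM in Homo livers and 14.4, 16.6, 14.1 and 15.4 CPM in Het livers. In WT livers it ran from 13.2 to 14.8 CPM with a median of 13.8. All 3 groups overlapped, and the Homo to WT ratio was 1.05 (interval 0.948 to 1.16, edgeR adjusted p = 0.998). Its coefficient of variation in WT, 4.39%, was the smallest of the 41 genes. The partner motor Kif3a averaged 3.92 ± 0.599 CPM in Homo, 3.91 ± 0.799 in Het and 3.51 ± 0.669 in WT. Kifap3, the subunit that links the motors to cargo, averaged 6.25 ± 0.46, 5.52 ± 0.663 and 5.67 ± 0.851 CPM.

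IFT-A, the complex for return transport and entry of membrane proteins, had 3 members. Ift140 is a core subunit, and the only cilium gene placed on chromosome 17, where 27 protein-coding genes separate it from Pkd1 in the GENCODE M21 gene order. It had 12.7, 11.8, 12 and 11.9 CPM in Homo livers and 11.8, 11.8, 12.1 and 12.7 CPM in Het livers. In WT livers it ran from 8.09 to 13.1 CPM with a median of 10.2. Homo and Het livers sat close together, inside the range of WT, whose highest liver exceeded them all. The Homo to WT ratio was 1.17 (interval 1 to 1.37, exact permutation p = 0.0857, edgeR adjusted p = 0.998), and the Het to WT ratio was also 1.17 (exact permutation p = 0.081). Both folds use the same 6 WT livers. With only WT livers 1 to 4 in the fit, the log2 fold change in Homo over WT was 0.12, against 0.23 with all 6. The coefficient of variation was 3.31% in Homo, 3.46% in Het and 16.5% in WT, where counting error alone gives 5.88% in Homo, 5.93% in Het and 5.88% in WT.

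Ift122, another IFT-A core subunit, had its lowest mean in Homo. It had 3.8, 3.76, 3.33 and 3.51 CPM in Homo livers and 4.17, 4.19, 4.58 and 4.35 CPM in Het livers. WT livers ran from 3.58 to 5.37 CPM with a median of 4.22. Each Homo liver lay below each Het liver, while Homo and WT overlapped. The Homo to WT ratio was 0.841 (interval 0.703 to 1.01, exact permutation p = 0.0429, edgeR adjusted p = 0.998) and the Homo to Het ratio 0.833 (exact permutation p = 0.0286, which 4 against 4 livers cannot go below, edgeR adjusted p = 0.965). Exact permutation tests were run on 51 values (Pkd1 and 16 cilium genes, 3 comparisons each) and are unadjusted throughout. Most of these genes were chosen for small edgeR p-values in the same livers. Their exact p-values are therefore no separate support.

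Ift43, which stabilises IFT-A, had 1.88, 1.84, 2.31 and 2.47 CPM in Homo livers and 2.5, 1.18, 2.43 and 1.68 CPM in Het livers. The WT median was 1.44 CPM, with livers between 1.27 and 2.04. The groups overlapped, and the Homo to WT ratio was 1.34 (interval 0.962 to 1.87, exact permutation p = 0.0381, edgeR adjusted p = 0.998).

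**Figure D3:**
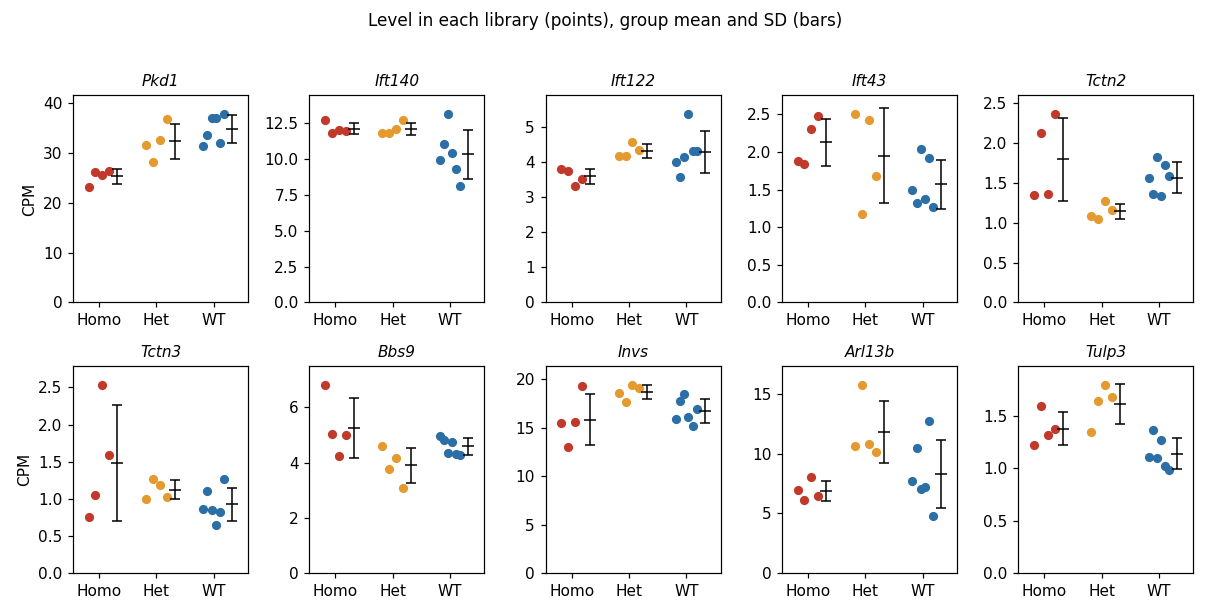
CPM in each liver for Pkd1 and 9 cilium genes, with Homo, Het and WT from left to right in each panel. Points are livers and bars are the group mean and SD. Homo livers lie below all WT livers for Pkd1, while for the cilium genes Homo and WT overlap in every panel. Tctn2, Ift122 and Arl13b show the separation of Homo from Het, and in Tctn3 the Homo 3 liver lies far above the rest.

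IFT-B is the complex for outward transport. Of its 8 core genes, 3 had a fold above 1 in Homo against WT, with a median log2 fold change of -0.03. Ift52, a scaffold subunit, averaged 15 ± 2.11 CPM in Homo, 15.2 ± 1.4 in Het and 14.8 ± 2.65 in WT, and its Homo to WT ratio was 1.01 (interval 0.836 to 1.22, edgeR adjusted p = 0.998). Ift88, the subunit lost in the polycystic Tg737 mouse, had 6.14, 5.15, 4.08 and 5.44 CPM in Homo livers and 6.18, 3.18, 5.26 and 5.17 CPM in Het livers. Among WT livers the lowest had 4.45, the median was 4.53 and the highest had 5.11 CPM. The WT range lay inside those of the other genotypes, and the Homo to WT ratio was 1.12 (interval 0.888 to 1.42).

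In the outer part of IFT-B, Ift20 had 38.1, 44.2, 45.2 and 41.5 CPM in Homo livers and 41.6, 39.9, 37.3 and 42.7 CPM in Het livers. WT ranged between 40.5 and 49.8 CPM around a median of 45.1. The groups overlapped, and the Het to WT ratio was 0.893 (interval 0.803 to 0.994, exact permutation p = 0.0476, edgeR adjusted p = 0.998). Ift172, the long subunit at the turnaround of trains at the tip, averaged 14.8 ± 0.97 CPM in Homo, 14.5 ± 1.47 in Het and 15.1 ± 1.57 in WT. Ift57 was the lowest member in CPM at 0.735 ± 0.408 in Homo, 0.463 ± 0.117 in Het and 0.791 ± 0.189 in WT. Its fold in Het over WT was 0.59 with an interval of 0.341 to 1.02, and in GENCODE M21 7.86% of its exon bases are shared with a gene on the opposite strand.

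No gene of the BBSome was called. Bbs9, a scaffold subunit, had 6.8, 5.03, 4.23 and 5 CPM in Homo livers and 4.59, 3.78, 4.18 and 3.1 CPM in Het livers. WT livers ran from 4.29 to 4.97 CPM with a median of 4.56. Homo 1 was the highest liver and the groups overlapped. The Homo to Het ratio was 1.35 (interval 1.07 to 1.7, exact permutation p = 0.0571, edgeR adjusted p = 0.916), and its log2 value of 0.43 was 0.28 without Homo 1. Bbs1, the subunit that binds Arl6, had 0.924, 0.899, 1.21 and 1.32 CPM in Homo livers and 0.626, 0.455, 1.19 and 0.862 CPM in Het livers. The WT median was 0.928 CPM, with livers between 0.644 and 1.27, and the groups overlapped.

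Bbs4 and Bbs2 had the largest coefficients of variation in WT, 43.7% and 37.1%. Bbs4 had 2.57, 2.9, 2.08 and 1.65 CPM in Homo livers and 2.96, 2.87, 2.03 and 2.33 CPM in Het livers. Among WT livers the lowest had 1.56, the median was 2.05 and the highest had 4.49 CPM. Bbs2 had 1.82, 1.43, 1.63 and 1.98 CPM in Homo livers and 1.67, 2.09, 2.47 and 2.24 CPM in Het livers. WT ranged between 1.07 and 2.61 CPM around a median of 1.55. For both, the Homo and WT means were nearly equal, with folds of 0.96 (interval 0.644 to 1.43) for Bbs4 and 0.989 (interval 0.681 to 1.44) for Bbs2. Bbs10, a chaperonin-like protein that helps assemble the BBSome, had 5.15, 4.66, 3.85 and 5.11 CPM in Homo livers and 3.13, 4.96, 4.02 and 4.87 CPM in Het livers. WT livers ran from 3.35 to 4.99 CPM with a median of 3.8, and the Homo to WT ratio was 1.19 (interval 0.945 to 1.5, exact permutation p = 0.119, edgeR adjusted p = 0.998).

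Among genes of the transition zone, the tectonics Tctn2 and Tctn3 had the smallest p-values. Tctn2 had 1.35, 2.12, 1.36 and 2.36 CPM in Homo livers and 1.09, 1.05, 1.27 and 1.16 CPM in Het livers. The WT median was 1.58 CPM, with livers between 1.34 and 1.83. Het livers lay below all livers of the other genotypes, and the Homo livers fell into a pair at the WT level and a pair above it. The fold was 0.728 in Het over WT (interval 0.54 to 0.983, exact permutation p = 0.00952, edgeR adjusted p = 0.998). In Homo over Het it was 1.56 (interval 1.13 to 2.16, exact permutation p = 0.0286, edgeR adjusted p = 0.916). In Homo over WT it was 1.14 (interval 0.852 to 1.52).

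Tctn3 had 0.759, 1.06, 2.53 and 1.59 CPM in Homo livers and 1, 1.27, 1.19 and 1.03 CPM in Het livers. Among WT livers the lowest had 0.652, the median was 0.86 and the highest had 1.27 CPM. Homo 1 and Homo 2 lay within the WT range, and Homo 3 and Homo 4 above it. The Homo to WT ratio was 1.6 (interval 1.03 to 2.48, exact permutation p = 0.1, edgeR adjusted p = 0.998). Its log2 value of 0.67 was 0.28 without Homo 3. The depth behind it was 23, 26, 67 and 29 counts in Homo livers and 17 to 35 counts in WT livers.

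The groups overlapped for every other gate gene. Tctn1 averaged 3.53 ± 0.205 CPM in Homo, 3.45 ± 0.755 in Het and 3.11 ± 0.712 in WT, and shares 19% of its exon bases with Hvcn1 on the opposite strand. Cep290, which tethers the membrane to the microtubules at the gate, averaged 7.5 ± 0.406, 7.3 ± 0.525 and 7.11 ± 0.529 CPM in the same order. Rpgrip1l, a scaffold of the gate, averaged 4.45 ± 0.49 CPM in Homo, 4.37 ± 0.738 in Het and 4.79 ± 0.583 in WT.

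The inversin compartment is a segment above the gate. Invs, its founding protein, had 15.5, 13, 15.6 and 19.3 CPM in Homo livers and 18.6, 17.7, 19.4 and 19.1 CPM in Het livers. WT ranged between 15.2 and 18.5 CPM around a median of 16.5. Homo 4 lay among the Het livers and the other Homo livers below them. The Homo to Het ratio was 0.846 (interval 0.728 to 0.983, exact permutation p = 0.114, edgeR adjusted p = 0.954). The Het to WT ratio was 1.12 (interval 0.975 to 1.28, exact permutation p = 0.0286, edgeR adjusted p = 0.998). Kif3b and Bbs9 had exact permutation p-values of 0.0381 and 0.0429 in that comparison. Without Homo 2 the log2 fold change in Homo over Het was -0.16, and without Homo 4 it was -0.35, against -0.24 with all livers. Nek8, a kinase of the compartment, averaged 3.04 ± 0.522 CPM in Homo, 3.19 ± 0.346 in Het and 2.98 ± 0.55 in WT.

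Genes for delivery of membrane proteins included the largest contrast of Homo with Het among the 41. Arl13b, a GTPase of the ciliary membrane, had 6.97, 6.13, 8.05 and 6.42 CPM in Homo livers and 10.6, 15.7, 10.8 and 10.1 CPM in Het livers. WT livers ran from 4.78 to 12.7 CPM with a median of 7.45. All Het livers lay above all Homo livers, and the WT range overlapped both. The fold was 0.584 in Homo over Het (interval 0.409 to 0.834, exact permutation p = 0.0286, edgeR adjusted p = 0.916) and 1.42 in Het over WT (interval 1.03 to 1.95, exact permutation p = 0.1, edgeR adjusted p = 0.998). The log2 value of 0.50 in Het over WT ran from 0.34 (without Het 2) to 0.66 (without WT 5) when single libraries were left out. In Homo over WT the fold was 0.828 (interval 0.597 to 1.15).

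Tulp3, which loads receptors onto IFT-A, had the smallest p in Het against WT. It had 1.22, 1.59, 1.32 and 1.37 CPM in Homo livers and 1.34, 1.64, 1.79 and 1.68 CPM in Het livers. The WT median was 1.1 CPM, with livers between 0.98 and 1.36. Of the Het livers 3 lay above all WT livers and Het 1 within their range. The Het to WT ratio was 1.41 (interval 1.1 to 1.82, exact permutation p = 0.00952, edgeR adjusted p = 0.977). The Homo to WT ratio was 1.21 (interval 0.936 to 1.56, exact permutation p = 0.0476). Arl3, the GTPase that releases lipid-anchored cargo and is activated by Arl13b, averaged 9.32 ± 1.74 CPM in Homo, 9.36 ± 0.838 in Het and 9.82 ± 1.21 in WT. Arl3 has a similar copy, Gm47414 (90.9% identity over 93.9% of the transcript), so its reads may be split. Glis2, a zinc finger factor of the nephronophthisis group, averaged 1.48 ± 0.191, 1.62 ± 0.507 and 1.69 ± 0.27 CPM.

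**Figure D4:**
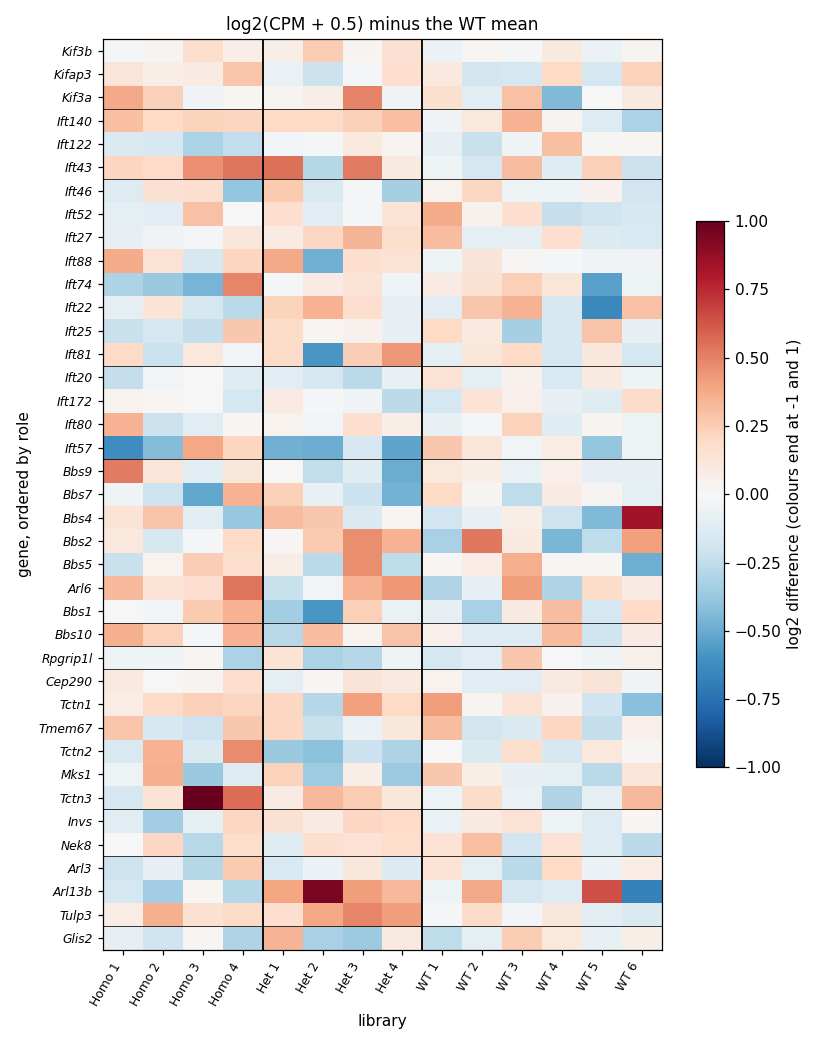
Difference of each liver from the WT mean for 39 of the 41 cilium genes, as log2(CPM + 0.5), with libraries in columns (Homo, Het, WT) and genes in rows by complex. Red is above and blue below the WT mean, and colours end at -1 and 1. Single tiles stand out, such as Tctn3 in Homo 3, Arl13b in Het 2 and Bbs4 in WT 6.

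As a set, the 41 genes differed little between libraries. The median over the genes of the log2 difference from the WT mean was 0.18 in Homo 4, where 29 of 41 lay above the WT mean, and between -0.08 and 0.13 in the other libraries. Homo 4 was the shallowest library and held the highest value of 8 genes. Het 2 held the lowest value of 7. The spread between livers within a group was modest, with median coefficients of variation of 16.2% in Homo, 15.8% in Het and 16% in WT. Counting error alone gives medians of 10.8%, 11% and 10.1% in that order. Genes of similar level had medians of 18.3%, 19.1% and 18.9%. The coefficient exceeded counting error for 29 of 41 genes in Homo, 29 in Het and 35 in WT.

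**Figure D5:**
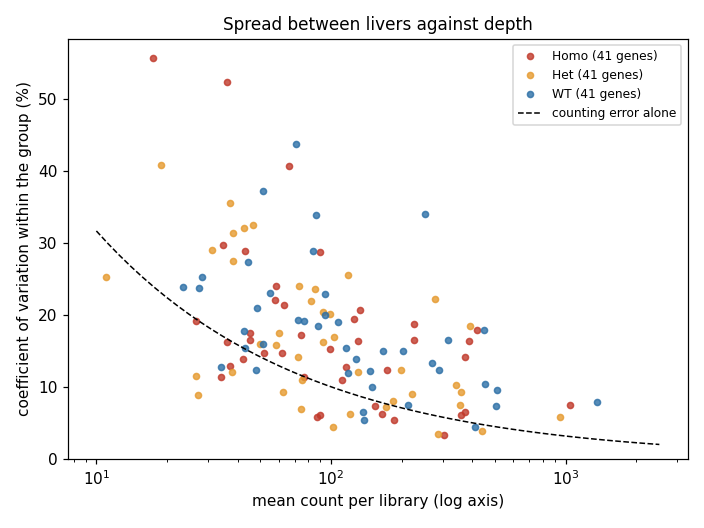
Coefficient of variation between livers (percent) against mean count per library (log axis) for the 41 cilium genes in Homo, Het and WT. The dashed line is the spread that counting error alone would give at the mean count. Genes with few counts vary most, up to 55.6% in Homo. With counting error taken from the counts of each library instead, 29, 29 and 35 of the 41 genes exceed it in Homo, Het and WT.

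Other genes of the pathway were read from 6 lists, each without the 41 genes, and of 90 tested genes 0 were called in any comparison by edgeR or by DESeq2. At an unadjusted edgeR p under 0.05 there were 4 in Homo against WT, 2 in Het against WT and 5 in Homo against Het, where 4.73%, 4.67% and 5.1% of all genes had such a p. In Homo against WT, they were 0 of 7 tested genes of cytoplasmic dynein-2 and Kif17, 1 of 15 other IFT and BBSome subunits, 1 of 17 other transition zone genes, 2 of 13 genes of ciliary cargo and lipid enzymes, 0 of 25 genes of the basal body and ciliogenesis and 0 of 13 Hedgehog pathway genes. The lowest edgeR adjusted p among all of them in that comparison was 0.675. It belonged to Gpr161, a ciliary receptor that holds Hedgehog signalling in check, with 0.495, 4.66, 0.34 and 0.11 CPM in Homo livers and 0.167, 0.409, 0.358 and 0.0431 CPM in Het livers. WT livers lay between 0.107 and 0.422 CPM, so the Homo 2 library alone stood high. Arl2bp, a partner of Arl3, averaged 3.82 ± 0.703 CPM in Homo, 3.3 ± 0.538 in Het and 2.94 ± 0.346 in WT (edgeR adjusted p = 0.998 in Homo against WT).

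From the other pathway lists, genes ranked first by p for Homo against WT also missed the threshold. Wdpcp, a planar polarity effector tied to the BBSome, averaged 1.15 ± 0.309 CPM in Homo, 1.55 ± 0.307 in Het and 1.74 ± 0.302 in WT (edgeR adjusted p = 0.976 in Homo against WT). Mkks, a chaperonin-like BBS gene, averaged 10.3 ± 0.547, 9.59 ± 1.92 and 11.8 ± 1.09 CPM, and Cspp1, a centrosomal protein of the gate, 37 ± 0.778, 38.1 ± 2.64 and 40.6 ± 2.61 CPM (edgeR adjusted p = 0.998 for both). In that comparison, Tmem107 of the gate, Dynll1 and Dynlt2b of dynein, Kif7 and Rfx2 of the ciliogenesis list, and Hhip of the Hedgehog list each had an edgeR adjusted p of 0.998. Dynlt2b, a low gene, averaged 0.532 ± 0.117 CPM in Homo, 0.211 ± 0.064 in Het and 0.407 ± 0.123 in WT. Its Homo and Het livers did not overlap, against 2.94% of all genes (edgeR adjusted p = 0.916 in Homo against Het).

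Markers of the cells that could carry these transcripts were checked beside the results. Cholangiocyte markers summed to 284 to 407 CPM in Homo, 341 to 402 in Het and 318 to 360 in WT, with 0 of 13 tested genes called by edgeR. Most of that sum came from Krt8, Krt18 and Aqp1, which other liver cells express too, at 100, 96 and 54.5 CPM in Homo, 126, 103 and 52.7 CPM in Het, and 108, 94.3 and 50.9 CPM in WT. The duct keratin Krt19 averaged 0.769 ± 0.329 CPM in Homo, 0.739 ± 0.259 in Het and 0.685 ± 0.205 in WT, and the duct surface gene Epcam 0.508 ± 0.17, 0.611 ± 0.276 and 0.665 ± 0.296 CPM. For Homo against WT, Sox9 and Krt7 had the smallest p of that list. Of 18 markers of motile cilia, 15 were too low to test and the sum was 2.91 to 4.41 CPM in Homo, 3.3 to 4.57 in Het and 2.49 to 4.03 in WT, with Foxj1, their master regulator, at 0.221 ± 0.166, 0.357 ± 0.429 and 0.193 ± 0.188 CPM. Of the 3 tested, none was called, and Dnai1 and Ccdc40 had the smallest p for Homo against WT.

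Marker sums of other liver cells differed somewhat more. Kupffer cell markers summed to 324 to 357 CPM in Homo, 289 to 346 in Het and 287 to 335 in WT, with 4 of 12 genes at an unadjusted edgeR p under 0.05 in Homo against WT, where 4.73% of all genes had one (C1qb and Cd68 smallest). Lymphocyte markers summed to 20.4 to 30.3 CPM in Homo, 20.2 to 23.5 in Het and 9.77 to 20.1 in WT. Neither Homo nor Het overlapped WT, but the gaps were narrow. Of all single genes, 1.15% did not overlap between Homo and WT, and 1.2% between Het and WT. In Homo against WT, 1 of 6 lymphocyte genes (Cd3e) had an unadjusted edgeR p under 0.05. Cd3e gave most of the lymphocyte sum, with 18.5 ± 3.43 CPM in Homo, 16.9 ± 1.41 in Het and 11.7 ± 3.87 in WT. It had 3.93 CPM in WT 1, against 12.6 to 14.2 CPM in the other WT livers. The T cell receptor genes Cd3d, Cd3g and Trac had group means between 0.0952 and 0.396 CPM. Stellate and fibroblast markers summed to 379 to 411 CPM in Homo, 348 to 463 in Het and 338 to 425 in WT. Pdgfrb and Pdgfra had the smallest p of these for Homo against WT. Sinusoidal endothelial markers summed to 472 to 566 CPM in Homo, 466 to 552 in Het and 432 to 515 in WT. For Homo against WT, Oit3 and Bmp2 had the smallest p among them, and Ttr and Cyp2e1 among hepatocyte markers. Of 71 tested markers of all cell types, 0 were called by edgeR in any comparison, with 7, 6 and 7 at an unadjusted edgeR p under 0.05 in Homo against WT, in Het against WT and between Homo and Het, against 4.73%, 4.67% and 5.1% of all genes. DESeq2 called 2 of them, both in Het against WT, where it called 0.198% of all genes. Both are stellate and fibroblast markers and were named after their values were seen. Of the 14 markers in that list, 10 had a fold above 1 in Het against WT, against 50% of all genes. Lrat of that list had the lowest log2 fold change, -0.31. The fibrillar collagen gene Col1a1 averaged 15.6 ± 2.11 CPM in Homo, 21.2 ± 3.1 in Het and 13.4 ± 2.01 in WT (adjusted p = 0.00106 by DESeq2 and 0.0925 by edgeR). Its partner Col1a2 averaged 16.8 ± 1.56, 21 ± 1.67 and 15.5 ± 1.41 CPM in the same order (adjusted p = 0.00374 by DESeq2 and 0.0949 by edgeR). The part of these marker levels in the cilium gene values was not tested.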

How the data were processed

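The authors deposited estimated counts per gene for 14 mouse liver libraries, with STAR, Salmon and the build GRCm39 named in the submitters' processing notes. The sources used here give no versions, annotation release or strand setting. Counts were rounded to whole numbers (6.36% to 8.59% of values per library were not whole, tolerance 0.01). Genes were filtered with filterByExpr (count minimum 10, total minimum 15), scaled by TMM and fitted over all 14 libraries with the quasi-likelihood test of edgeR 4.0.16 in R 4.3.3, with Benjamini-Hochberg adjustment over 16201 genes and a threshold of 0.05. Contrasts were Homo minus WT, Het minus WT and Homo minus Het, plus a linear trend. DESeq2 1.42.0 was an alternative. Single values were compared by exact permutation tests of mean CPM, two-sided. The labels number the animals singly, and p-values measure the spread between these livers only. Intervals are at 95%.

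Values per library are given for Pkd1, Ift140, the 5 cilium genes with the smallest p in each comparison, the highest and lowest per kilobase, and the 2 most and 2 least variable in WT; each other list is represented by its 2 genes of smallest p for Homo against WT. A few genes that these rules take in are not reported here by name, though all counts and summaries include them. Other genes are named with group means as examples of their complex, and Ift57, Gpr161 and Dynlt2b were given in more detail after their values were seen. Members and lists were chosen with earlier results of these data known. Exon lengths, overlaps and gene order came from GENCODE M21 (GRCm38), another build than the table's, so no coordinates of the table were used. By M21, 10 of 40 placed cilium genes share exon bases with another gene and 4 match another gene in part or whole by BLAST. Promoters were from RefSeq (GRCm38.p6). The fit was also run on counts simulated from its own model, which cannot show whether that model suits these livers.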

Additional observations from a re-analysis of the deposited data

Results flagged for a closer look

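Groups of 4 and 6 livers were searched for a single liver far from the others, in 54 sets of values. In sets not chosen by their values, chance marks about 1 in 20. Bbs4 and Ift88 were included for a large and a small spread in WT, and most other genes for a small edgeR p. That rate may therefore not hold here. The search marked 3. Arl13b, the ciliary membrane GTPase, had 15.7 CPM in Het 2, against 10.1 to 10.8 CPM in the other Het livers. Bbs4, a BBSome subunit, had 4.49 CPM in WT 6, against 1.56 to 2.43 CPM in the other WT livers. Ift88, an IFT-B core subunit, had 5.11 CPM in WT 2, against 4.45 to 4.67 CPM in the other WT livers, a gap that is small in CPM.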

How the results depend on the processing

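No cilium gene and no other gene of the pathway lists passed the threshold in any of the 91 recomputed counts, and the log2 fold changes that were recomputed, those of the 5 cilium genes of smallest p in each comparison, kept their direction and stayed above the threshold in each fit (Ift140 was not refitted without chromosome 17, on which it lies). Pkd1, the label check, lost its edgeR call in 10 of 22 alternatives (adjusted p up to 0.131). At most 0.377% of all genes were called by edgeR or DESeq2 with all livers, so a cilium gene count of 0 is likely by that share alone. The count of all genes called moved between settings. With DESeq2 it was 61 in Homo against WT, 32 in Het against WT, 16 in Homo against Het and 54 in the trend, against 36, 9, 5 and 30 with edgeR. With no low-count filter it was 23 in Het against WT, and with only the 2 groups compared 2 in Homo against Het. With chromosome 17 genes left out before adjustment the counts were 5, 4, 1 and 4. Leaving out single libraries gave 23 (without Homo 1) to 40 in Homo against WT, 8 to 11 in Het against WT, 4 to 7 in Homo against Het and 19 (without WT 1 or WT 6) to 33 in the trend.

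Replicate numbers showed no clear pairing of the livers. Libraries with the same number correlated at a median of 0.049, against 0.006 for different numbers, and 4 of 12 libraries matched their own number best. Litter is not labelled and may not follow these numbers, so litter effects could not be checked this way. With the replicate block (numbers 1 to 4) the counts were 20 in Homo against WT, 9 in Het against WT, 2 in Homo against Het and 11 in the trend. The same libraries without the block, an alternative chosen after seeing the data, gave 22, 11, 5 and 14 in the same order.

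The median log2 fold change of the cilium genes in Homo against Het was 0.08 when scaled by library total alone, where the median of all genes was 0.07, and ran from -0.04 (without Het 2 or Het 4) to 0.03 when single libraries were left out, so its sign is not fixed. It ran from 0 to 0.06 in Homo against WT, 0.02 to 0.08 in Het against WT and 0 to 0.03 in the trend, and with the replicate block it was -0.02 in Homo against WT, 0.02 in Het against WT, 0.02 in Homo against Het and -0.01 in the trend. The level rule gave 43 genes at 0.2 CPM and 39 at 1 CPM. For these changes the cause was not tested. Depth limits the low genes most: Ift57 had 9 to 31 counts per library.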
